A study of Rattus norvegicus with 10 samples.

Results

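SNARE proteins and synaptotagmins were followed as a group of 45 genes among the 23487 genes counted in rat oligodendrocyte cultures. They were all genes with a symbol of the form Stx, Vamp, Stxbp or Syt followed by a number, together with Snap29 and Snap47. Symbols were taken from a deposited table that lists 16129 of the 23487 genes. By role they comprised 6 syntaxins of the plasma membrane, 8 syntaxins of endosomes, Golgi and endoplasmic reticulum (ER), 2 members of the SNAP-25 family, 7 VAMPs, 7 syntaxin-binding proteins, 8 synaptotagmins known to bind calcium and 7 other synaptotagmins. Snap23 and Snap25 were not analysed here.

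Polyadenylated RNA was sequenced from 10 libraries of primary Sprague-Dawley rat cells, 2 in each of 5 groups, to ask what raising or lowering the microRNA miR-145 does to oligodendrocyte precursor cells (OPCs) and oligodendrocytes (OLs). The OLs were taken 5 days after transfection at 30 nM with a mimic of miR-145, with that mimic plus one of miR-219, or with a scrambled control mimic (miR-ctl). The OPCs were taken 24 h after transfection, also at 30 nM, with an inhibitor directed at miR-145, called anti-miR-145, or a control inhibitor (anti-miR-ctl). A methods passage on sequencing names lentiviral overexpression of miR-145 in place of a mimic, and the labels, which name transfected mimics, were followed. The treatment tag of the 2 libraries of the miR-145 group also names miR-219, whereas their titles name miR-145 alone, and the titles were followed. The cells came from the cortices of newborn pups by shaking of mixed glial cultures, so other glia can remain in them. The study describes its replicates of primary culture in general as cultures from separate animals, and the labels only number these libraries, so the p-values below measure the spread between the 2 libraries of a group. Mature miR-145 itself is not measured by this kind of library.

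SNARE proteins drive the fusion of vesicles with their target membrane: a VAMP on the vesicle zips into a bundle with a syntaxin and a SNAP-25 family protein on the target. Syntaxin-binding proteins of the Munc18 family hold and guide the syntaxin, tomosyns and amisyn occupy it in place of a VAMP, and synaptotagmins are vesicle proteins, some of which trigger fusion when calcium rises. Oligodendrocytes use this machinery to carry myelin lipids and proteins such as PLP to the growing sheath, and Vamp3 and Vamp7 are known for that transport.

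The mature sequences behind the treatments are shown because the seed, bases 2 to 8 in capitals, is the part of a microRNA that pairs with its targets. They are the RefSeq rat sequences (build GRCr8). The labels equate the miR-145 mimic with the 5p strand but give no strand for the miR-219 mimic, for which the 5p strand of miR-219a is shown.
rno-miR-145-5p: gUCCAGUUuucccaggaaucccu
rno-miR-219a-5p: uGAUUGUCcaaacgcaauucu

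The libraries held 33505706 to 42684206 estimated counts, of which the 45 genes took 0.264% to 0.425%. Levels below are CPM, the counts of a gene scaled to the size of its library, after TMM scaling over all 10 libraries. Gene lengths were not used, so levels are compared between libraries for a gene and not between genes. The labelled cell types were checked with marker lists. The summed level of 13 markers of maturing OLs was 20665 and 34619 CPM in the OL controls against 1793 and 1897 CPM in the OPC controls, and that of 7 OPC markers was 2314 and 1628 against 7448 and 7407 CPM. Of these 7, 6 were lower in the OL controls. Gpr17 went the other way, at 375 and 265 against 26.2 and 21.5 CPM. Markers of other cells were present too: 9 astrocyte markers summed to 5404 to 13164 CPM in OLs against 403 to 674 CPM in OPCs, and 12 microglial markers to 418 to 1114 CPM in OLs against 948 to 1192 CPM in OPCs. The 13 neuronal markers found summed to 557 to 665 CPM in OLs and 894 to 1105 CPM in OPCs. They did not move together: Slc32a1 was at 0 in 3 of the 6 OL libraries. Tubb3 lay at 82.7 to 109 CPM in OLs and 26.7 to 64.3 CPM in OPCs, and Elavl3 at 83.2 to 144 and 51.4 to 80.8 CPM. In bulk RNA, fewer cells of a type and less RNA per cell cannot be told apart.

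The OL controls were first compared with the OPC controls, which shows the family across the stages of the lineage. Of the 45 genes, 44 passed the filter on low counts. With edgeR's quasi-likelihood test and Benjamini-Hochberg adjustment over all genes (adjusted p under 0.05, which is what "called" means below), 18 were higher in OLs and 11 lower, and 15 were not called. Over all 15721 genes tested, 28.8% were called higher and 28.7% lower. In 22 of the 44 both OL libraries lay above both OPC libraries, and in 15 both lay below, against 41.2% and 40.5% of all genes. The median log2 fold change of the family was 0.26. Stage, medium, days in culture and control oligonucleotide all differ between these groups and cannot be told apart, and the higher astrocyte markers of the OLs (8 of 9 called higher) stand beside every difference that follows. Of the 12 microglial markers, 5 were called lower in OLs and 1 higher, with Ptprc at 9.17 and 12.5 CPM against 91.8 and 84.2 CPM, Itgam at 7.69 and 10.8 against 105 and 89.7 CPM, and Trem2, the one called higher, at 27.3 and 34.4 against 13.6 and 14.4 CPM. The part of these cells in the differences, among them the decreases of Stx3, Vamp8 and Stxbp2, was not tested.

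**Figure D1:**
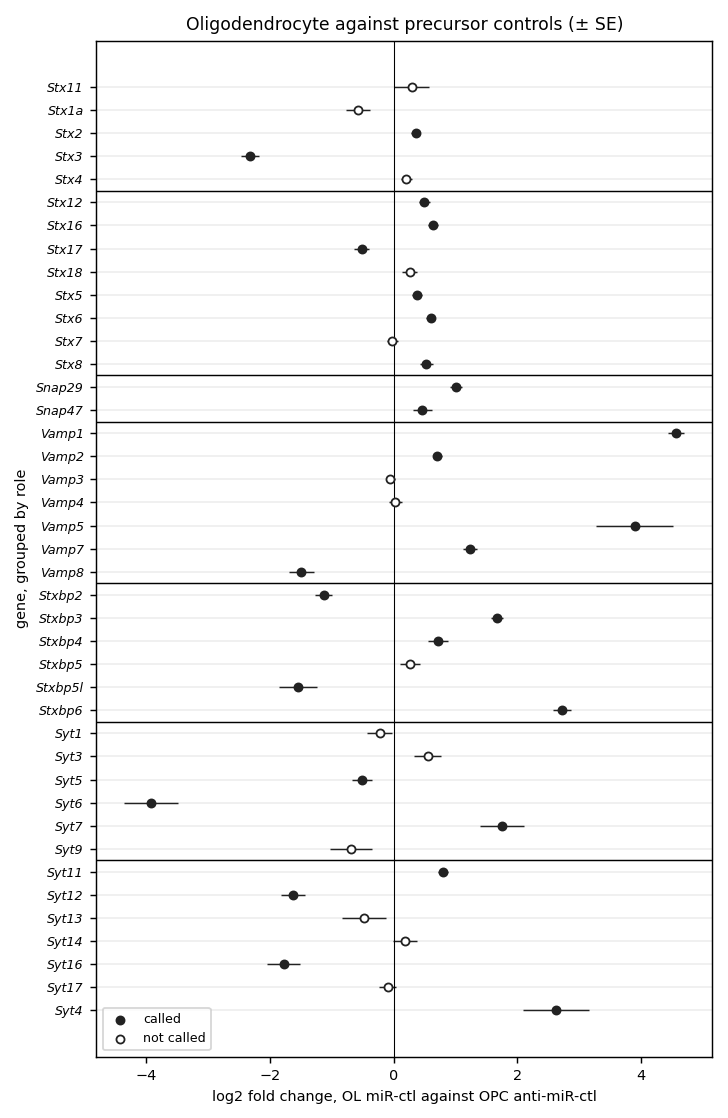
Log2 fold change (horizontal axis) of OL miR-ctl against OPC anti-miR-ctl for 41 genes in rows, grouped by role between the black lines. Points are the fitted values, bars are ± 1 standard error, and filled points were called; Vamp1 lies farthest to the right at 4.57 and Syt6 farthest to the left at -3.92.

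The VAMPs held the largest increase. Vamp1 (ENSRNOG00000019219), a vesicle SNARE known from nerve terminals as synaptobrevin 1, stood at 63.0 and 74.6 CPM in the OL controls and at 2.85 and 2.93 CPM in the OPC controls. The groups were far apart, with a log2 fold change of 4.57 (SE 0.14, edgeR adjusted p = 4.5e-05), a 23.7-fold difference. Among members with a group mean of at least 1 CPM, Vamp1 had the largest ratio between its highest and its lowest group mean over all 5 groups, 34.5. Vamp5, best known from muscle, read 12.7 and 41.2 CPM in OLs and 1.89 and 1.70 CPM in OPCs. The OL libraries differed from each other more than 3-fold, and the fitted log2 fold change was 3.89 (SE 0.63, edgeR adjusted p = 0.00457). Vamp7, a SNARE of late endosomes and lysosomes linked to PLP transport, read 48.3 and 57.3 CPM in OLs against 22.8 and 22.2 CPM in OPCs, a log2 fold change of 1.23 (SE 0.11, edgeR adjusted p = 0.000688). Vamp2, the main vesicle SNARE of synapses, was higher by 0.71 on the log2 scale (SE 0.08, edgeR adjusted p = 0.00128), with 202 and 190 CPM against 124 and 116 CPM. Vamp3, the recycling-endosome VAMP, was not called, with 141 and 149 CPM in OLs and 149 and 151 CPM in OPCs. Vamp4 of the trans-Golgi network was not called either (log2 fold change 0.03). Vamp8, an endosomal and granule SNARE, went the other way, with 5.38 and 7.55 CPM against 16.8 and 19.4 CPM and a log2 fold change of -1.49 (SE 0.20, edgeR adjusted p = 0.00254).

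The promoter of Vamp1 is shown because its RNA differed most between the stages. The window runs from 250 bases before to 50 bases after the RefSeq transcription start (chr4:159698644-159698943, plus strand, GRCr8, whereas the counts were made on Rnor6.0). Capitals mark a match to the cyclic AMP response element TGACGTCA, which begins 71 bases before the start.
Vamp1 promoter: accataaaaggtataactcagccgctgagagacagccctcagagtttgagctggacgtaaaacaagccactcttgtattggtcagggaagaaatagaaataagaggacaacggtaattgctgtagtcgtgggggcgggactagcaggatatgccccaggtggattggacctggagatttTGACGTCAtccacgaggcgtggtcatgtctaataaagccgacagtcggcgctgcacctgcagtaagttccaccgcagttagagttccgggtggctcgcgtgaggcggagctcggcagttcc
The match is a description of the letters and not evidence of a bound factor. Promoter windows were found for 35 of the 45 genes, and Vamp1 was the only one of the 35 with TGACGTCA, which 2.0% of all 27457 genes with a window contained. The search covered both strands and 5 motifs, chosen after the levels were known. The E-box CAGCTG was in 12 of the 35 against 16.2% of all genes, the E-box CACGTG in 4 against 7.08%, ACAAAG, a SOX motif, in 7 against 19.7%, and the GC box GGGCGG in 25 against 36.0%. The GC box is in the Vamp1 window as well, and does not overlap the element in capitals.

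Among the plasma membrane syntaxins, Stx3, known from the apical membrane of epithelia, fell from 27.3 and 24.5 CPM in the OPC controls to 4.65 and 5.71 CPM in the OL controls. The log2 fold change was -2.33 (SE 0.15, edgeR adjusted p = 0.000214). Stx4, the widespread surface syntaxin, was not called, with 74.6 and 84.0 CPM in OLs and 68.1 and 69.2 CPM in OPCs. Stx1a, a neuronal syntaxin, missed the threshold at a log2 fold change of -0.58 (edgeR adjusted p = 0.0501). Stx2 was higher by 0.35, and Stx11, a syntaxin of cytotoxic and other blood cells, was not called.

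The syntaxins of inner membranes moved less, with 5 of 8 called higher and 1 lower, against 28.8% and 28.7% of all genes. The 5 were Stx16 (0.64) and Stx6 (0.60) of the trans-Golgi network, Stx8 (0.53) of late endosomes, Stx12 (0.50) of recycling endosomes and Stx5 (0.38) of the ER-to-Golgi route, all on the log2 scale. Stx17, the syntaxin of autophagosomes, was lower by 0.52 (edgeR adjusted p = 0.0179). Snap29, which pairs with Stx17 and Vamp8 in the fusion of autophagosomes with lysosomes, was higher instead, with 120 and 138 CPM in OLs against 63.8 and 64.0 CPM in OPCs (log2 fold change 1.01, SE 0.10, edgeR adjusted p = 0.00076). The 3 partners of that complex therefore differed in direction, since Vamp8 and Stx17 fell and Snap29 rose. Snap47, a less studied SNAP-25 relative, was higher by 0.46 (edgeR adjusted p = 0.047).

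The Munc18 proteins split. Stxbp3 (Munc18c), the partner of Stx4, rose from 31.6 and 32.1 CPM to 95.6 and 108 CPM, a log2 fold change of 1.67 (SE 0.09, edgeR adjusted p = 0.000154). RefSeq also lists a pseudogene of Stxbp3, with which reads may be shared. Stxbp2 (Munc18-2), the form of epithelia and blood cells, was lower, with 8.72 and 10.4 CPM against 21.9 and 20.0 CPM (log2 fold change -1.14, SE 0.14, edgeR adjusted p = 0.00167). Stxbp6 (amisyn), a soluble protein with a VAMP-like motif that binds syntaxins, stood at 21.1 and 17.6 CPM in OLs and 2.90 and 2.96 CPM in OPCs, a 6.59-fold difference (log2 2.72, SE 0.15, edgeR adjusted p = 0.000153). Stxbp4, a binder of Stx4, was higher by 0.71, the tomosyn Stxbp5 was not called, and its relative Stxbp5l was lower by 1.55 on the log2 scale.

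Synaptotagmins moved in both directions. Among those that bind calcium, Syt7, the slow high-affinity sensor of lysosome and granule exocytosis, was higher in OLs, with 4.80 and 2.79 CPM against 1.31 and 0.932 CPM (log2 fold change 1.75, SE 0.36, edgeR adjusted p = 0.0104). Syt6 was lower, with 0.201 and 0.553 CPM against 5.22 and 5.95 CPM (log2 fold change -3.92, SE 0.43, edgeR adjusted p = 0.00128). Its OL values rest on 8 and 18 counts. Syt1, the fast sensor of synapses, was not called, with 33.7 and 21.9 CPM against 32.9 and 32.2 CPM. Syt5 fell by 0.52, and Syt3 and Syt9 were not called. Syt10 and Syt2 were close to absent, with at most 18 and 10 counts in any library, and no fold change is given for them; only Syt2 failed the filter in every comparison. Among the synaptotagmins not known as calcium sensors, Syt11, a synaptotagmin of inner membranes, was at 1515 and 1615 CPM in OLs and 898 and 893 CPM in OPCs (log2 fold change 0.80, SE 0.08, edgeR adjusted p = 0.00104). Syt4, its closest relative and a protein of dense core and other vesicles, read 225 and 689 CPM in OLs and 68.3 and 79.2 CPM in OPCs (log2 fold change 2.63, SE 0.53, edgeR adjusted p = 0.0102). Syt12 fell by 1.63 and Syt16 by 1.78 on the log2 scale, while Syt13, Syt14 and Syt17 were not called.

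Beyond the family, partners of the same machinery were listed by function. Over all genes, 28.8% were called higher in OLs and 28.7% lower. Of 12 other Golgi, ER and endosomal SNAREs, 6 were called higher in OLs and 0 lower, with Bet1 at 1.20. Of 14 priming and clamp factors, which ready vesicles for fusion, 3 were higher and 8 lower, and of 16 synaptic and dense core vesicle proteins 4 were higher and 11 lower. Of 9 NSF, SNAP and other Sec1/Munc18 proteins 1 was higher and 2 lower, and of 10 other double C2 proteins 5 were higher and 2 lower. The neuronal markers were lower for 9 of 13 genes and higher for 2, and the share of the vesicle protein differences that goes with them was not tested. Leaving out either OPC control library reduced the 29 calls of the family to 18. Snap47, Stx2, Stx5, Stx8, Stx12, Stx17, Stxbp4, Stxbp5l, Syt4 and Syt5 lost their call without either of them, as did Syt7 without replicate 2, whereas Vamp1, Vamp5, Vamp7, Stxbp3, Stxbp6, Stx3 and Syt6 kept it.

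**Figure D2:**
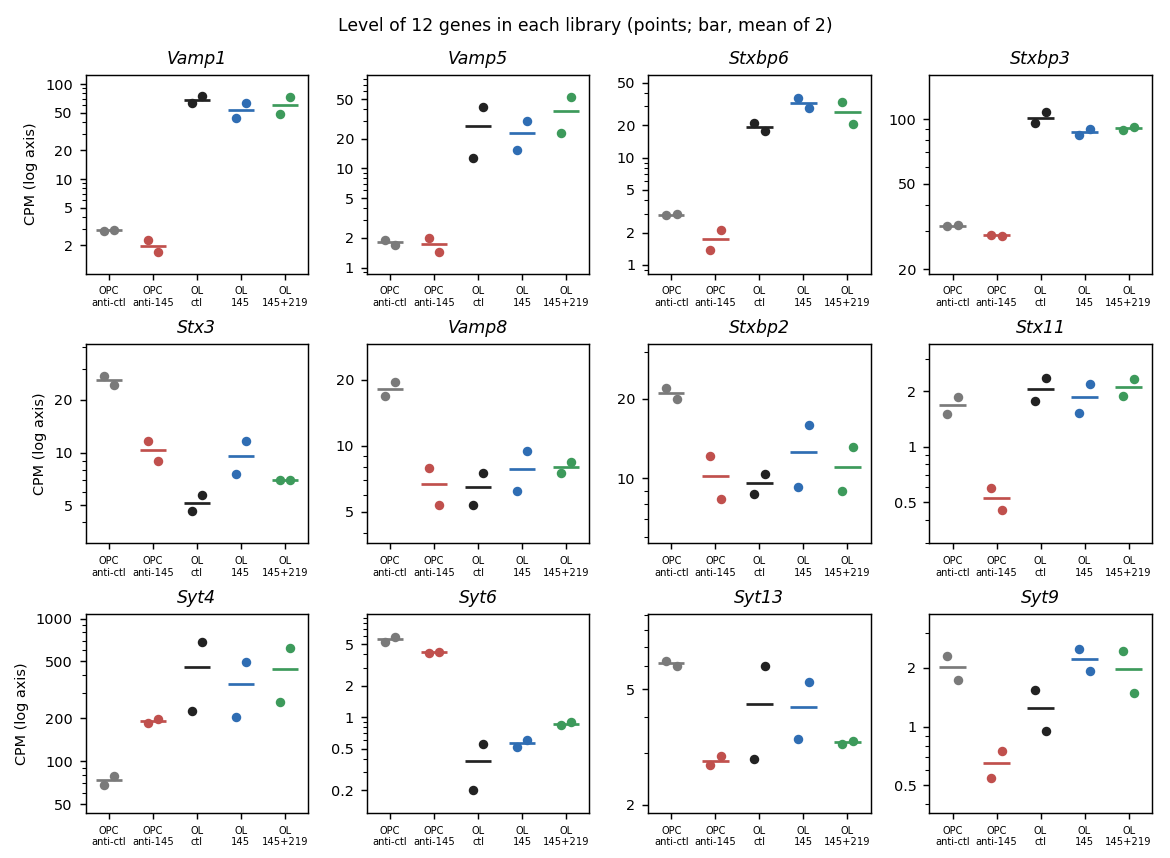
CPM on a log axis of 12 genes in each library, by group from left to right (OPC anti-miR-ctl, OPC anti-miR-145, OL miR-ctl, OL miR-145, OL miR-145 with miR-219). Points are libraries and bars the mean of 2; Vamp1 lies between 44.3 and 74.6 CPM in all 6 OL libraries and at 2.93 CPM or less in all 4 OPC libraries, and Syt4 is higher in the OPC libraries with the inhibitor than in their controls.

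Within the OL groups, Syt4 and Vamp5 varied more between the libraries of a group than between the groups. Syt4 read 225 and 689 CPM in miR-ctl, 205 and 492 CPM in miR-145 and 262 and 622 CPM with both mimics. Vamp5 read 12.7 and 41.2, 15.4 and 29.7, and 22.8 and 52.7 CPM in the same order. In each OL group the library numbered 2 was the higher, by 2.37-fold to 3.07-fold for Syt4 and 1.93-fold to 3.24-fold for Vamp5. With Syt2 and Syt10 left out, these were the only members of the remaining 43 with a ratio above 1.5 in all 3 groups, and 2.68% of all genes were so. Vamp1 showed the same order with smaller ratios, 1.18 to 1.49. The summed markers of maturing OLs were also higher in the library numbered 2, by 1.52-fold to 1.69-fold, with 20665 and 34619 CPM in miR-ctl, 17972 and 27299 CPM in miR-145 and 22064 and 37239 CPM with both mimics. Their part in the spread of Syt4 and Vamp5 was not tested.

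**Figure D3:**
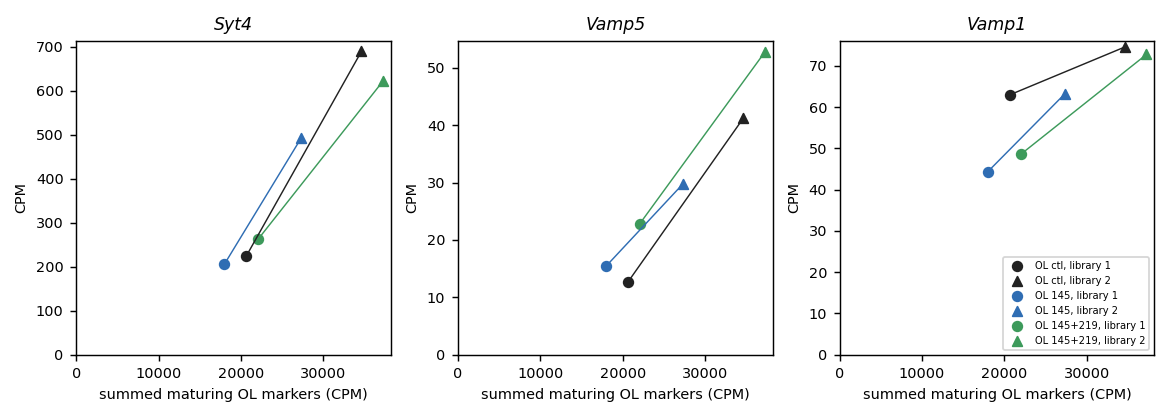
CPM of Syt4, Vamp5 and Vamp1 (vertical axes) against the summed CPM of 13 markers of maturing OLs (horizontal axes) in the 6 OL libraries; circles are the libraries numbered 1, triangles those numbered 2, and lines join the libraries of a group. In each group the triangle lies above and to the right of the circle, for Syt4 from 205 to 262 CPM up to 492 to 689 CPM.

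The inhibitor comparison asked what lowering miR-145 does in precursors. Of 44 genes of the family tested, 2 were called higher with anti-miR-145 and 8 lower, against 12.1% and 16% of all 15496 genes tested. In 15 of the 44 both inhibitor libraries lay above both controls and in 18 below, against 32.8% and 35.1% of all genes, and the median log2 fold change was -0.08. The share called in either direction was 22.7% in the family and 28.1% over all genes.

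Syt4 (ENSRNOG00000017333) was the strongest of the increases. It read 68.3 and 79.2 CPM in the anti-miR-ctl OPCs and 184 and 198 CPM with the inhibitor, and the groups did not overlap. The log2 fold change was 1.39 (SE 0.10, edgeR adjusted p = 0.000161), a 2.62-fold difference. Snap47 rose from 13.1 and 15.0 to 19.5 and 18.5 CPM (log2 fold change 0.45, SE 0.11, edgeR adjusted p = 0.0266). In a fit over all 5 groups, whose spread includes that of the OLs, neither was called (edgeR adjusted p = 0.146 and 0.0601), and Snap47 also lost its call without either control library. Syt5 (log2 fold change 0.38) and Syt3 (0.47), which bind calcium, did not pass the threshold.

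The promoter of Syt4 is shown for comparison with that of Vamp1, since the 2 genes rose most clearly in different comparisons (chr18:23320814-23321113, minus strand, GRCr8, printed in the direction of transcription). It contains none of the 5 motifs searched.
Syt4 promoter: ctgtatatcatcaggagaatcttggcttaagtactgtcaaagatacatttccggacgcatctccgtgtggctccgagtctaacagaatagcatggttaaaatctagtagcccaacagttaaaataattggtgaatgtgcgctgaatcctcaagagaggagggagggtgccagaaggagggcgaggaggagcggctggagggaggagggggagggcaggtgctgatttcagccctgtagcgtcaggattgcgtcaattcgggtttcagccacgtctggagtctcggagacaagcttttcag
Other proteins of synaptic and dense core vesicles were looked at beside Syt4. Of the 16 tested, 8 were called higher with the inhibitor and 1 lower, against 12.1% and 16% of all genes. The summed level of the list was 1710 and 1484 CPM against 514 and 521 CPM. Scg2, the precursor of secretoneurin, read 665 and 562 CPM against 31.2 and 35.8 CPM (log2 fold change 4.21, SE 0.14, edgeR adjusted p = 1.63e-05), and the neuropeptide precursor Vgf 576 and 450 against 75.8 and 82.2 CPM (log2 fold change 2.72). Without Scg2 and Vgf the sum was 469 and 473 CPM against 407 and 403 CPM. Among the other granins and cargo of dense core vesicles, Chgb was called higher (log2 fold change 2.16) and Scg3 lower (-0.31), while Chga (0.08) and Scg5 (-0.75) were not called. Of these vesicle protein genes 13 had a promoter window, and those of Scg2, Vgf and Syn1 contain TGACGTCA, against 2.0% of all genes. The GC box was in 8 of the 13 (36.0% of all genes) and CAGCTG in 4 (16.2%). CACGTG was in 1 (7.08%) and ACAAAG in 1 (19.7%). The motifs were chosen after the levels were known, and a link to these differences was not tested. Neuronal markers were called higher for 6 of 13 genes and lower for 0, against the same 12.1% and 16% of all genes. Their sums were 894 and 1105 CPM against 968 and 911 CPM, and their part in these differences was not tested.

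Among the members that fell with the inhibitor, Stx3 dropped from 27.3 and 24.5 to 11.7 and 8.99 CPM (log2 fold change -1.31, SE 0.15, edgeR adjusted p = 0.000925). Vamp8 dropped from 16.8 and 19.4 to 7.94 and 5.40 CPM (log2 fold change -1.43, SE 0.19, edgeR adjusted p = 0.00211). Stxbp2 dropped from 21.9 and 20.0 to 12.1 and 8.35 CPM (log2 fold change -1.02, SE 0.18, edgeR adjusted p = 0.00643). Stx11 dropped from 1.50 and 1.86 to 0.596 and 0.454 CPM (log2 fold change -1.66, SE 0.31, edgeR adjusted p = 0.00798). Stx11, Stxbp2 and Vamp8 are known together from granule release of blood cells, a grouping noticed after their values were seen. All 12 microglial markers were called beside them, 7 higher and 5 lower, against 12.1% and 16% of all genes. The sum of these markers was 1192 and 948 CPM with the inhibitor against 1139 and 1060 CPM. The markers that fell include Ptprc (33.3 and 27.5 against 91.8 and 84.2 CPM) and Itgam (33.1 and 31.5 against 105 and 89.7 CPM), and those that rose include C1qb (221 and 181 against 79.7 and 80.8 CPM). The part of these cells in the 4 decreases was not tested.

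The other decreases were in synaptotagmins and a tomosyn. Syt13, which does not bind calcium, fell from 6.25 and 6.03 to 2.73 and 2.93 CPM (log2 fold change -1.10, SE 0.15, edgeR adjusted p = 0.00225). Syt17 fell from 10.8 and 9.89 to 5.14 and 5.43 CPM (log2 fold change -0.96, SE 0.12, edgeR adjusted p = 0.00169). Syt9, a fast calcium sensor, fell from 2.29 and 1.73 to 0.546 and 0.749 CPM (log2 fold change -1.61, SE 0.30, edgeR adjusted p = 0.00749). Stxbp5 (tomosyn) differed least of the called genes, with 53.7 and 49.1 against 38.3 and 42.2 CPM (log2 fold change -0.34, edgeR adjusted p = 0.033), and lost its call without either control library. Syt13, Stxbp2 and Stxbp5 were not called in the fit over all 5 groups (edgeR adjusted p = 0.0625, 0.0507 and 0.313).

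Members of the general secretory route showed small values with the inhibitor. None of the 8 syntaxins of inner membranes passed the threshold, with log2 fold changes between -0.24 for Stx17 and 0.23 for Stx8. In 6 of the 8 both inhibitor libraries lay above both controls, and in 1, Stx17, below, against 32.8% and 35.1% of all genes. Stx4, Vamp2, Vamp3, Vamp7, Snap29, Stxbp3, Syt1, Syt7 and Syt11 were not called either, with log2 fold changes between -0.29 for Syt1 and 0.22 for Vamp2. Vamp1, so much lower in OPCs than in OLs, read 2.28 and 1.70 CPM with the inhibitor against 2.85 and 2.93 CPM (log2 fold change -0.52, SE 0.22, edgeR adjusted p = 0.128). Among the partner lists, 1 of 12 other SNAREs was called higher and 0 lower, and 1 of 14 priming and clamp factors higher and 3 lower. Of 9 NSF, SNAP and Sec1/Munc18 proteins 0 were higher and 1 lower, and of 9 other double C2 proteins 1 was higher and 2 lower. Over all genes 12.1% were called higher and 16% lower. Without the anti-miR-145 library of replicate 2 the calls in the family rose from 10 to 19, among them Stx4, Stx5, Stx8, Stx17, Vamp2 and Syt1, and those over all genes from 28.1% to 46%, with the lone library then assumed to vary like the controls.

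The mimic comparison asked whether raising miR-145 changes OLs. With edgeR, 0 of 44 genes of the family were called, as were 0 of all 15461 genes (0%), although 4 of the 44 had an unadjusted p under 0.05, as had 2067 of all genes (13.4%). DESeq2 called 1 member, Stxbp6, higher (adjusted p = 0.0221), against 3.46% of all genes. In either direction it called 649 genes (4.2%), 114 of them lower, so the number of genes called depends on the tool. The study used DESeq2 and reported genes changed in both directions for this comparison. In 5 of the 44 both miR-145 libraries lay above both controls, and in 13 below, against 22.9% and 24.4% of all genes. The median log2 fold change was -0.11, with 30 of 44 values negative, against -0.01 over all genes. With the replicate number as a block, 5 members were called, against 14.7% of all genes: Stxbp6 (edgeR adjusted p = 3.12e-05), Stx3 (0.00139) and Syt12 (0.00238) higher, and Vamp1 (0.0321) and Syt10 (0.0224) lower. That fit has a single residual degree of freedom, and nothing in the labels ties libraries of equal number to a common culture. Libraries of equal number did deviate together from their group means here (correlation 0.396 over 16339 genes). A shared factor would widen the spread in the fit without the block, and whether there is one was not tested.

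**Figure D4:**
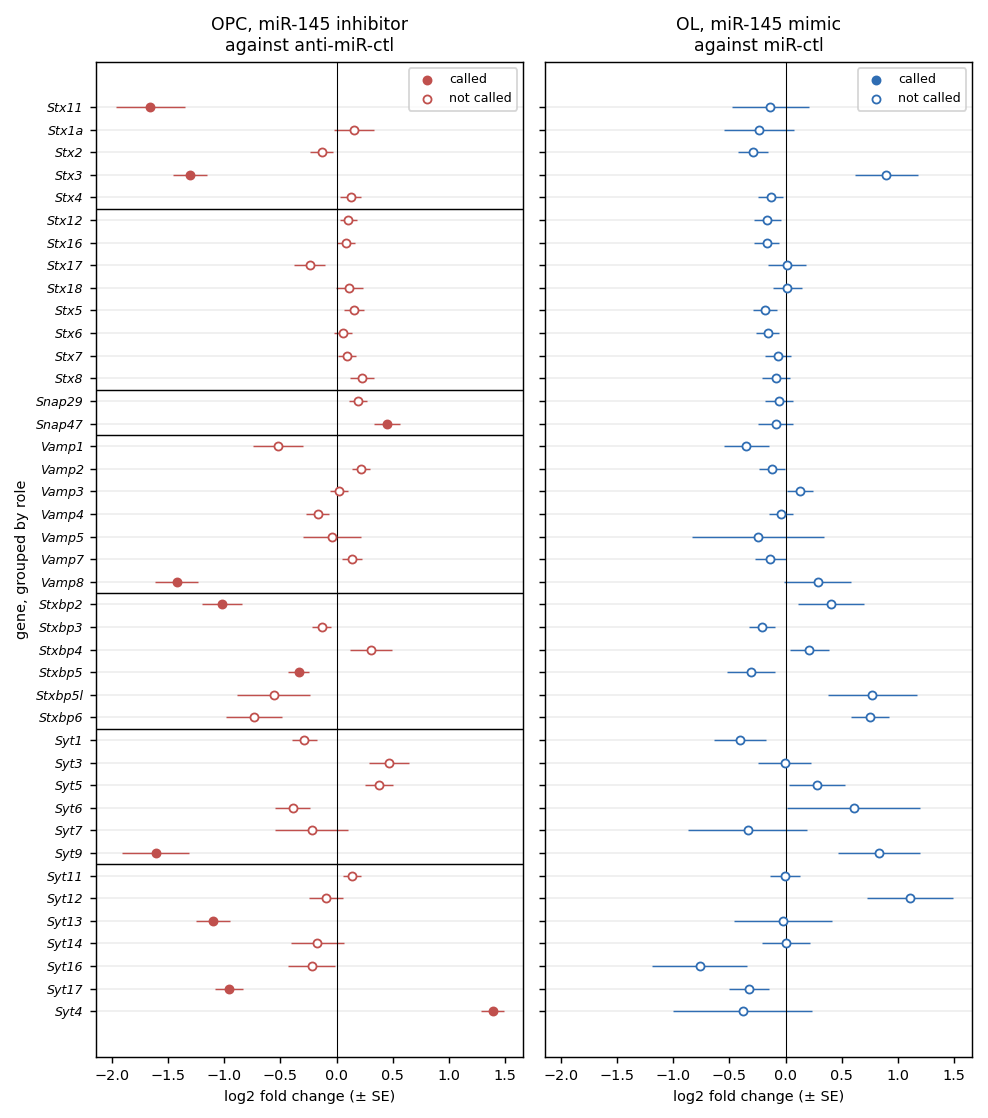
Log2 fold changes (horizontal axes, bars ± 1 standard error) of 41 genes in rows, grouped by role, in OPCs with the miR-145 inhibitor (left) and in OLs with the miR-145 mimic (right), each against its own control. Filled points were called; the 10 filled points on the left include Syt4 at 1.39 and Stx11 at -1.66, and the right panel has none.

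Stxbp6 read 36.1 and 28.9 CPM with the miR-145 mimic and 21.1 and 17.6 CPM in miR-ctl. The groups did not overlap, with a log2 fold change of 0.75 (SE 0.17, edgeR adjusted p = 0.19). This p and those that follow are from the fit without the block. Stx3 read 7.59 and 11.6 against 4.65 and 5.71 CPM (log2 fold change 0.90, SE 0.28, edgeR adjusted p = 0.284), and the larger of its mimic values came from replicate 2, in which the microglial markers summed to 1114 CPM against 450 CPM in replicate 1 and 437 and 646 CPM in the controls. Their part in this difference was not tested. Syt12 read 7.85 and 3.86 against 2.59 and 2.86 CPM (log2 fold change 1.11, SE 0.38, edgeR adjusted p = 0.328), and Syt9 2.51 and 1.92 against 1.53 and 0.952 CPM (0.83, SE 0.37, edgeR adjusted p = 0.406). Syt10, the fourth gene with an unadjusted p under 0.05, rested on 2 and 1 counts against 18 and 7. Of the values below the controls, Stx2 stood at -0.29, Syt17 at -0.33 and Syt16 at -0.76 on the log2 scale, none of them called. The 9 astrocyte markers were positive throughout in this comparison, with sums of 13164 and 8924 CPM against 6423 and 5404 CPM, and the 12 microglial markers likewise, and their part in the values above was not tested.

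Vamp3 and Vamp7, named above for myelin transport, were near their controls, as were Stx4 and Snap29. Stx3, given above, stood farther from its control (log2 fold change 0.90, edgeR adjusted p = 0.284). Vamp3 read 168 and 148 CPM with the mimic against 141 and 149 CPM, Vamp7 45.1 and 50.5 against 48.3 and 57.3 CPM, Stx4 72.3 and 71.8 against 74.6 and 84.0 CPM, and Snap29 118 and 129 against 120 and 138 CPM. The groups overlapped for Vamp3, Vamp7 and Snap29. Both mimic libraries lay below both controls for Stx4 and for Vamp2, with 189 and 170 against 202 and 190 CPM for Vamp2 (log2 fold change -0.12, SE 0.11). The same held for 4 of the 8 syntaxins of inner membranes, against 24.4% of all genes. Stxbp3 lay below its control, with 84.8 and 90.3 against 95.6 and 108 CPM (log2 fold change -0.21, SE 0.12, edgeR adjusted p = 0.484). Vamp1 read 44.3 and 63.1 against 63.0 and 74.6 CPM (log2 fold change -0.35, SE 0.20, edgeR adjusted p = 0.496, and 0.0321 with the replicate block). For Syt4, Vamp5 and Syt7 the spread between libraries gave standard errors of 0.62, 0.59 and 0.53, so that a difference of 1 on the log2 scale lies within 2 standard errors of 0 for them. Of the 13 markers of maturing OLs, 4 had both mimic libraries below both controls (30.8%) and 0 above, against 24.4% and 22.9% of all genes. The log2 fold change was negative for 8 of them and positive for 5, which were Mog, Mobp, Opalin, Ermn and Aspa, with Mobp at 58.3 and 132 CPM against 15.0 and 68.8 CPM.

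Mimic and inhibitor values were set side by side, since these comparisons share no library. Of the 44 genes tested in both, 26 had opposite signs (59.1%), against 52% of 14852 genes. Of the 10 called with the inhibitor, 6 had the opposite sign with the mimic (60%), against 55.6% of all genes so called. Stx3 stood at 0.90 with the mimic and -1.31 with the inhibitor, Syt9 at 0.83 and -1.61, Stxbp2 at 0.41 and -1.02, and Vamp8 at 0.29 and -1.43. Syt4 stood at -0.38 and 1.39, and Snap47 at -0.09 and 0.45. The other 4 shared a sign, namely Stx11 (-0.13 and -1.66), Syt13 (-0.02 and -1.10), Syt17 (-0.33 and -0.96) and Stxbp5 (-0.31 and -0.34). Stxbp6, not called by edgeR in either comparison without the block, stood at 0.75 and -0.73. The stage, the time after transfection and the state of the cells differ between the comparisons, and the difference between them was not tested.

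With both mimics against miR-ctl, 0 of 44 members passed, 0 reached an unadjusted p under 0.05, and of all 15436 genes 0% were called by edgeR. Both libraries lay above both controls in 6 genes of the family and below in 10, against 17.3% and 19.4% of all genes. Stx3 read 6.97 and 6.96 CPM (log2 fold change 0.43, SE 0.19, edgeR adjusted p = 0.814), Syt6 0.840 and 0.898 CPM (1.23, SE 0.56), Syt12 5.90 and 3.17 CPM (0.74, SE 0.35) and Vamp3 176 and 152 CPM (0.18, SE 0.12). Syt1 read 21.0 and 20.3 CPM (-0.43, SE 0.23), Syt7 2.64 and 2.41 CPM (-0.59, SE 0.33) and Stx2 64.8 and 76.9 CPM (-0.19, SE 0.13), and Syt10 rested on 5 and 0 counts. Against the miR-145 mimic alone, 0 of 43 members passed, 0 reached an unadjusted p under 0.05, again with 0% of 15501 genes called. Both libraries lay above in 7 and below in 2, against 13.6% and 11.2% of all genes, with Syt6 at 0.61, Syt16 at 0.67, Syt11 at 0.15 and Stx12 at 0.10 above, and Stx3 at -0.48 and Syt13 at -0.42 below. These comparisons share control or mimic libraries with the one before, so their values are not independent of it.

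**Figure D5:**
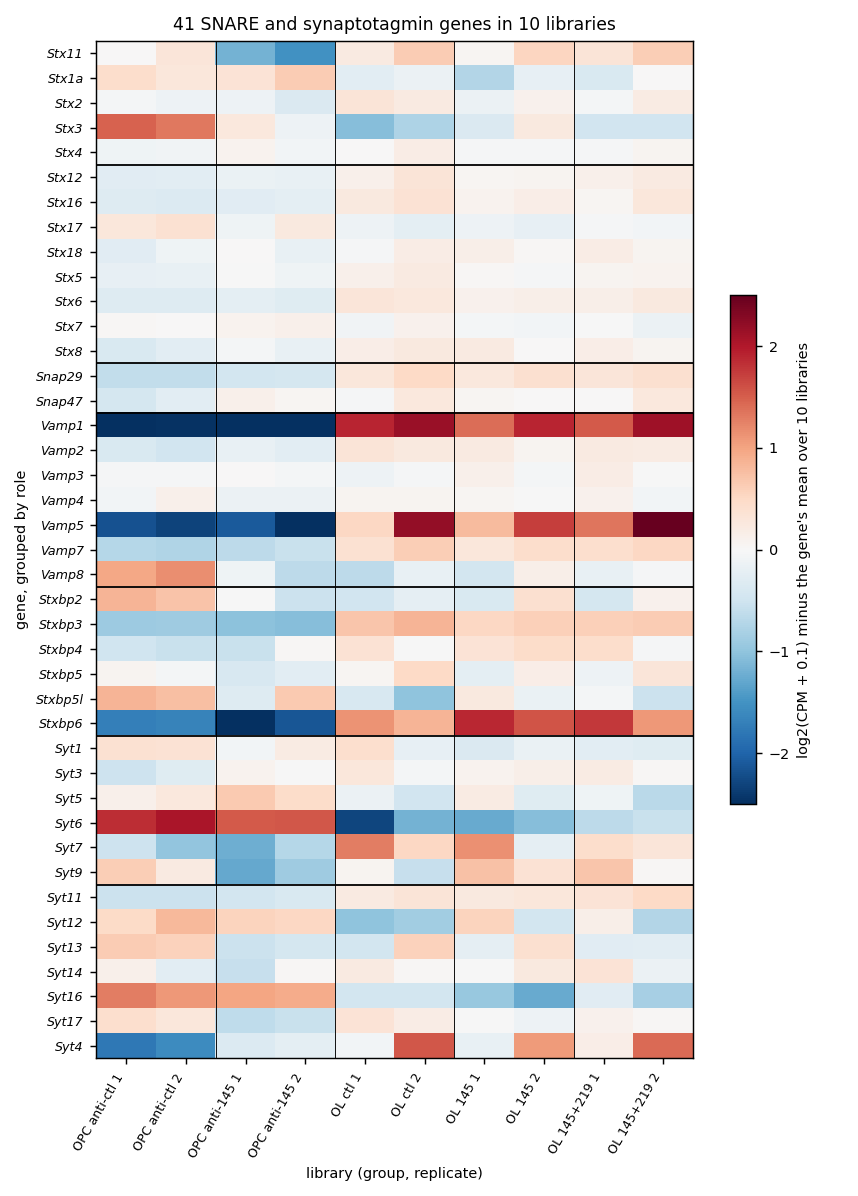
Levels of 41 genes in rows, grouped by role, in the 10 libraries in columns, as log2(CPM + 0.1) minus the mean of the gene over the libraries (red higher, blue lower). Vamp1, Vamp5, Stxbp6 and Syt4 are blue in the OPC controls and red in several OL libraries, Stx3, Syt6 and Syt16 show the reverse, and the rows of Vamp3, Stx7 and Stx4 are nearly white.

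Across all 5 groups the members differed widely in how much they varied. The ratio of the highest to the lowest group mean was 1.13 for Vamp3, 1.14 for Stx7, 1.15 for Stx4 and 1.16 for Vamp4, all SNAREs of general traffic. Others of general traffic varied more, with a ratio of 2.02 for Snap29 and 2.35 for Vamp7. The ratio was 34.5 for Vamp1, 21.8 for Vamp5, 18.7 for Stxbp6, 14.8 for Syt6, 6.20 for Syt4, 5.87 for Syt16 and 4.99 for Stx3. For Vamp1, Vamp5, Stxbp6 and Syt6 the 3 OL groups lay together on one side of both OPC groups in every library. For Syt4 the OPCs with the inhibitor, at 184 and 198 CPM, came within reach of the lower library of the miR-145 OLs at 205 CPM. Stx3 in the OPCs with the inhibitor, at 11.7 and 8.99 CPM, overlapped the miR-145 OLs at 7.59 and 11.6 CPM.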

How the data were processed

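Per the labels and the study's methods, the authors made stranded, poly(A)-selected libraries, sequenced them on an Illumina NextSeq instrument, quantified transcripts with Salmon 0.12.0 on GENCODE Rnor6.0 and summed them to genes with tximport. The deposited values used here are estimated counts per gene, not normalized, which were rounded to whole numbers. Salmon divides reads between similar transcripts, so close copies are uncertain. A deposited table of the authors' own comparison (fold changes and p-values) was used only to pair gene IDs with symbols. No column of per-sample values was left out.

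Of the 4 libraries of a comparison, 2 or more had to hold 5 or more counts of a gene, and the genes that passed were tested with edgeR 4.0.16's quasi-likelihood test (TMM scaling, R 4.3.3), each comparison on its own libraries, with Benjamini-Hochberg adjustment over all genes tested and a threshold of 0.05. With 2 libraries against 2, an exact permutation test cannot go below p = 0.333, so none was run. The scripts were tested on simulated counts. Alternatives were DESeq2 1.42.0, its size factors, other filters, a fit over all groups, a replicate block and leaving out each library. The genes named are, for each comparison, up to 4 per direction with the smallest p among those whose groups do not overlap, a set fixed by role (Stx4, Snap29, Vamp2, Vamp3, Vamp7, Stxbp3, Syt1, Syt4, Syt7 and Syt11) and the gene with the largest ratio of group means; other members are named to account for each role, and 2 that are counted are not reported here by name. The members and lists were chosen with earlier results of these data known. Promoter and microRNA sequences are from RefSeq tables of build GRCr8, matched by gene ID or symbol. Target sites in transcripts were not analysed here.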

Additional observations from a re-analysis of the deposited data

How the results depend on the processing

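For the miR-145 mimic in OLs, members called were 0 by the main test, 1 by DESeq2 (Stxbp6) and 5 with a replicate block (Stx3, Stxbp6, Syt10, Syt12 and Vamp1), with which 14.7% of all genes were called; leaving out any library gave 0 each time. Both mimics against the miR-145 mimic gave 1 call with the block (Vamp5, 1.19% of all genes) and 0 otherwise, and both mimics against miR-ctl gave 0 under every alternative. For the inhibitor, 10 members were called by the main test, 5 with all 5 groups in a fit (4348 and 2657 of all genes), and 8 to 19 when a library was left out, 19 without anti-miR-145 replicate 2. The 29 calls between OL and OPC controls became 18 to 34 when a library was left out, 18 without either OPC control and 34 without OL control replicate 1. No named member changed sign together with its call under any alternative. The cause of these shifts was not tested.

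Libraries of the same number deviated together from their group means in the OL comparisons (correlations 0.396 to 0.622 over 16339 genes) but not in the inhibitor comparison (-0.141), and the block is an alternative only. With the numbers crossed, an alternative chosen after seeing the data, the inhibitor comparison gave 13 calls, and with the block as labelled 10. Depth limits Syt2 and Syt10, at 18 counts or fewer in every library. It also limits Syt6 and Syt16 in the OL libraries, with 8 to 34 and 13 to 30 counts.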
